A study of Homo sapiens with 4 samples.

Results

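Basement membrane genes and integrins were followed in day 14 human cardiomyocytes of 2 developmental origins. The genes were taken from the deposited FPKM table by symbol: the laminin α, β and γ chains (LAMA, LAMB and LAMC symbols), the collagen IV chains COL4A1 to COL4A6, the nidogens NID1 and NID2, perlecan (HSPG2), agrin (AGRN), the endostatin collagens COL15A1 and COL18A1, and the ITGA and ITGB integrin subunits. This rule used no measured value and found 49 of the 23615 gene symbols in the table. FPKM (fragments mapped to a gene, divided by the length of its transcript and by the mapped fragments of the library) are corrected for length, so levels of different genes can be set beside each other.

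All 4 libraries were made from poly-A RNA of unsorted cultures of RUES2, an established human embryonic stem cell line, induced with activin A and BMP4 at the doses named A100/B5. In the ECsXAV group (2 libraries), hemogenic endothelial cells were made first, with VEGF, bFGF and BMP4 given on day 2, and the tankyrase inhibitor XAV, which blocks Wnt/β-catenin signaling, was then added at 2 µM. In the CPC group (2 libraries), cardiomyocytes came directly from cardiac progenitor cells, without the endothelial stage. According to the methods, XAV was given from day 5 to the endothelial cells and, in a subset of experiments, on day 3 to cardiac progenitors, and the labels do not say whether these 2 CPC cultures received it. Both groups were induced with Matrigel in the medium, a mouse basement membrane extract that brings matrix protein but no human RNA. The replicates are biological according to the study. The names of the libraries carry a different prefix in each group, whose meaning the labels do not give, and p-values measure only the spread between these 4 cultures.

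A basement membrane is a thin sheet of matrix on the cell surface. Laminins, trimers of an α, a β and a γ chain, form a network on the cells, collagen IV trimers form a covalent network beside it, and nidogens and heparan sulfate proteoglycans such as perlecan and agrin join them. Integrins are αβ heterodimers that bind the matrix outside the cell and the cytoskeleton inside. In heart muscle every cardiomyocyte lies in a basement membrane, and integrins of the β1 chain, chiefly with the laminin receptor chain α7, hold the costameres to it.

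The 8 cardiomyocyte markers, among them cardiac troponin T (TNNT2) and the myosin heavy chains MYH6 and MYH7, were all expressed and summed to between 12432 and 13987 FPKM per library. Of these 8, MYH6 was called higher in CPC and MYH7 higher in ECsXAV. Of the 12 endothelial markers, EGFL7 (12 to 16.9 FPKM), KDR (7.06 to 10.8 FPKM) and CDH5 (0.649 to 1.49 FPKM) reached a mean of 1 FPKM, and the other 9 did not, with PECAM1, VWF and CLDN5 at no more than 0.233 FPKM in any library. Relative to ECsXAV replicate 1, the depth of the other libraries was 50.1% to 86.9%, with ECsXAV replicate 2 the shallowest. Steps of FPKM are coarser there, and values near 0 carry more counting error.

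Of the 49 genes, 29 had a mean of at least 1 FPKM and were tested with limma in a fit over 12398 genes. Of these 29, 4 passed the criterion of an adjusted p under 0.05 and a change over 2-fold, and all 4 were higher in ECsXAV: LAMB1, LAMA2, COL4A1 and ITGA1. Over all tested genes 1.94% were called higher in ECsXAV. None of the 29 was called higher in CPC, where 1.19% of all genes were called. By limma's unadjusted p, 13 of the 29 were under 0.05. Of these, 11 were higher in ECsXAV, beside 11.6% of all tested genes, and 2, LAMB2 and COL4A6, were higher in CPC, beside 9.29%. At an adjusted p under 0.05 with no demand on fold, 7 of the 29 passed, all higher in ECsXAV, beside 2.84% of all genes. Without ECsXAV replicate 2 the number was 3, when LAMA1 (adjusted p = 0.138, limma), COL4A2 (0.0879) and COL18A1 (0.196) did not pass and ITGA1 was not tested. The 3 that passed with a change under 2-fold were COL4A2, COL18A1 and LAMA1.

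In 18 of the 29 every ECsXAV value lay above every CPC value, beside 26.1% of all tested genes, with missing values left out. For 1 of these 18, COL4A5, only 1 CPC value was available. In 4 both CPC libraries lay above both ECsXAV libraries, beside 25.1%, and in 7 the groups overlapped. The median log2 fold change of the 29, CPC minus ECsXAV on log2(FPKM + 1), was -0.19, beside -0.01 for all tested genes. For 21 of the 29 the 95% confidence interval lay within a 2-fold change either way. Of the 20 genes that were not tested, 2 (LAMB4 and ITGAM) were listed at 0 in all libraries, and 18 were above 0 in at least 1.

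**Figure D1:**
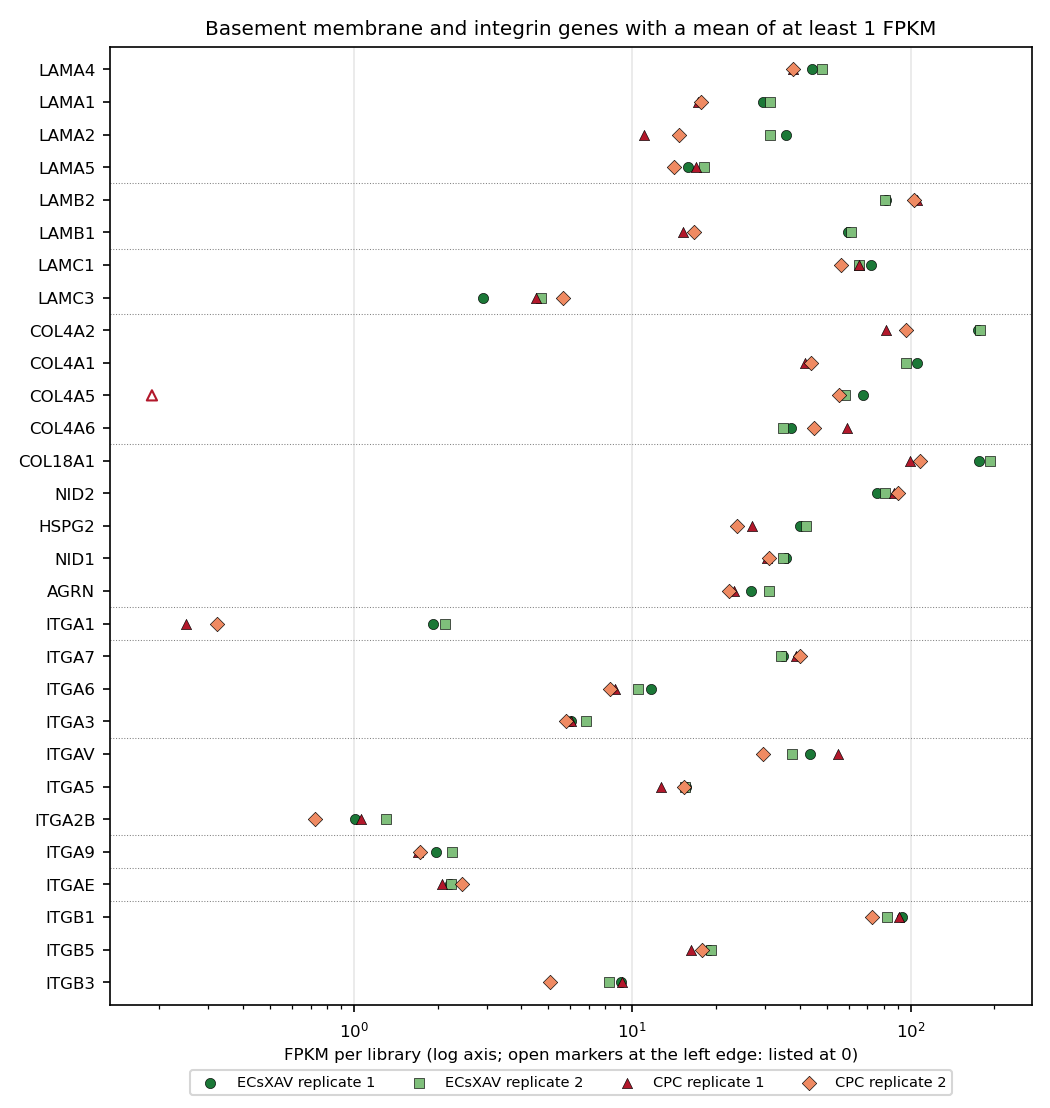
FPKM (log axis) of the 29 tested genes in each library, grouped by role with dotted lines between roles, with filled green markers for ECsXAV and red or orange markers for CPC. COL18A1, COL4A2 and LAMB2 sit at the right, LAMB1 shows a wide gap between groups (59.8 and 61.3 against 15.2 and 16.7 FPKM), and the open marker is COL4A5 in CPC replicate 1, which is listed at 0.

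Among the tested laminin chains the largest log2 fold change was that of a β chain. LAMB1, the β1 chain (chr7:107564244-107643658, minus strand, hg19), was at 59.8 and 61.3 FPKM in ECsXAV and at 15.2 and 16.7 FPKM in CPC. Both CPC libraries were far below both ECsXAV libraries, and the replicates of a group lay close together. The log2 fold change was -1.86 (SE 0.10, adjusted p = 0.00378, limma), a ratio of mean FPKM of 3.79. LAMB2, the β2 chain that marks muscle and synaptic basement membranes (chr3:49158547-49170551, minus strand), went the other way by a smaller amount. Its levels were 81.5 and 81.2 FPKM in ECsXAV and 105 and 103 FPKM in CPC, without overlap, and the log2 difference of 0.35 (SE 0.09, 95% confidence interval 0.10 to 0.60) did not pass (adjusted p = 0.141, limma).

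Set beside each other, the β chains changed their balance. LAMB1 made up 42.6% ± 0.476 (SD, n = 2) of the summed FPKM of the laminin β chains in ECsXAV and 13.3% ± 0.937 in CPC. LAMB2 was 1.34 ± 0.0271 times as abundant as LAMB1 in ECsXAV and 6.53 ± 0.534 times in CPC. The sum of the β chains moved less, from 142 FPKM ± 0.912 to 120 FPKM ± 0.758. With 2 libraries per group, an exact two-sided permutation test cannot go below p = 0.33, so shares and ratios are given with no test.

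The stretches before the 2 genes are shown because the balance between LAMB1 and LAMB2 differed between the groups. They are the 250 bases upstream of each RefSeq start on GRCh38.p14, and capitals mark GC boxes (GGGCGG on either strand).
LAMB1, chr7:108003162-108003411, minus strand: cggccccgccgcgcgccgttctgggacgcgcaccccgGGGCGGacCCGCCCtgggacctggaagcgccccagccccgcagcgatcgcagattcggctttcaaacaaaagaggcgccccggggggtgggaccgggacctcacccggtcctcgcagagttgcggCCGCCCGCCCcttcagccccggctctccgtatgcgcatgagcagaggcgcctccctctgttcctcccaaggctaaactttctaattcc
LAMB2, chr3:49133051-49133300, minus strand: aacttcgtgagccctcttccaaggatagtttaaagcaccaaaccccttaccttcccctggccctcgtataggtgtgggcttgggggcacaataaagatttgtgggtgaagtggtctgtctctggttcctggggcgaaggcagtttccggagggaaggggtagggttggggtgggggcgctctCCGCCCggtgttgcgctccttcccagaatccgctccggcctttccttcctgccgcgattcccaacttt
The LAMB1 stretch holds 4 GC boxes, 2 of them overlapping, and the LAMB2 stretch holds 1. Neither stretch holds a CCAAT or a TATAAA. LAMB2's stretch lies within the non-coding RNA gene LOC124909377.

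Across the windows of 250 bases before 35116 RefSeq starts, 42.6% held a GC box, 32.0% a CCAAT and 10.7% a TATAAA, on either strand. Of the 49 genes, 37 had a window, and 21 of these held a GC box, 10 a CCAAT and 1, ITGA6, a TATAAA. These matches are a description of letters and not of bound sites.

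Among the laminin α chains, LAMA2, the α2 chain of adult muscle whose loss causes a congenital muscular dystrophy (chr6:129204283-129837711, plus strand), was at 35.6 and 31.2 FPKM in ECsXAV and at 11 and 14.7 FPKM in CPC. The groups did not overlap, and CPC replicates differed from each other by more than those of LAMB1. The log2 fold change was -1.32 (SE 0.17, adjusted p = 0.0364, limma). With no filter on low FPKM the call was lost at the same fold change (adjusted p = 0.0672, limma). LAMA1, the α1 chain of the early embryo, was at 29.4 and 31.3 FPKM in ECsXAV and 17.2 and 17.7 FPKM in CPC, and fell by 0.76 on the log2 scale (SE 0.09, adjusted p = 0.0313, limma), which is under 2-fold.

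LAMA4, the α4 chain of vessels and of heart muscle, had the highest α chain level in every library. Its FPKM were 44.3 and 48.1 in ECsXAV and 37.8 and 37.9 in CPC, a log2 difference of -0.28 (SE 0.10, adjusted p = 0.211, limma) that did not pass. LAMA5, the broadly expressed α5 chain, overlapped between the groups, at 15.8 and 18.1 FPKM in ECsXAV and 16.9 and 14.1 FPKM in CPC. Below LAMA4 the order of the chains differed between the groups: LAMA2 was above LAMA1 in ECsXAV replicate 1, level with it in ECsXAV replicate 2 and below it in both CPC libraries. LAMA2 made up 26.3% ± 2.98 of the α chain FPKM in ECsXAV and 15.4% ± 2.92 in CPC, while LAMA4 made up 36.4% ± 1.38 and 45.3% ± 0.476. The summed α chain FPKM were 127 ± 2.58 in ECsXAV and 83.6 ± 1.05 in CPC.

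LAMC1, the γ1 chain shared by most laminins, was close to level, at 71.9 and 65.3 FPKM in ECsXAV and 65.2 and 56 FPKM in CPC (log2 difference -0.18, SE 0.13, adjusted p = 0.501, limma). Relative to LAMB1 it rested at 1.13 ± 0.098 in ECsXAV and 3.82 ± 0.652 in CPC. LAMC3, the γ3 chain, overlapped between the groups at 2.9 and 4.69 against 4.5 and 5.64 FPKM. LAMA3 and LAMB3, chains best known from epithelia, were under 0.4 FPKM, and each was higher in both ECsXAV libraries than in both CPC libraries.

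**Figure D2:**
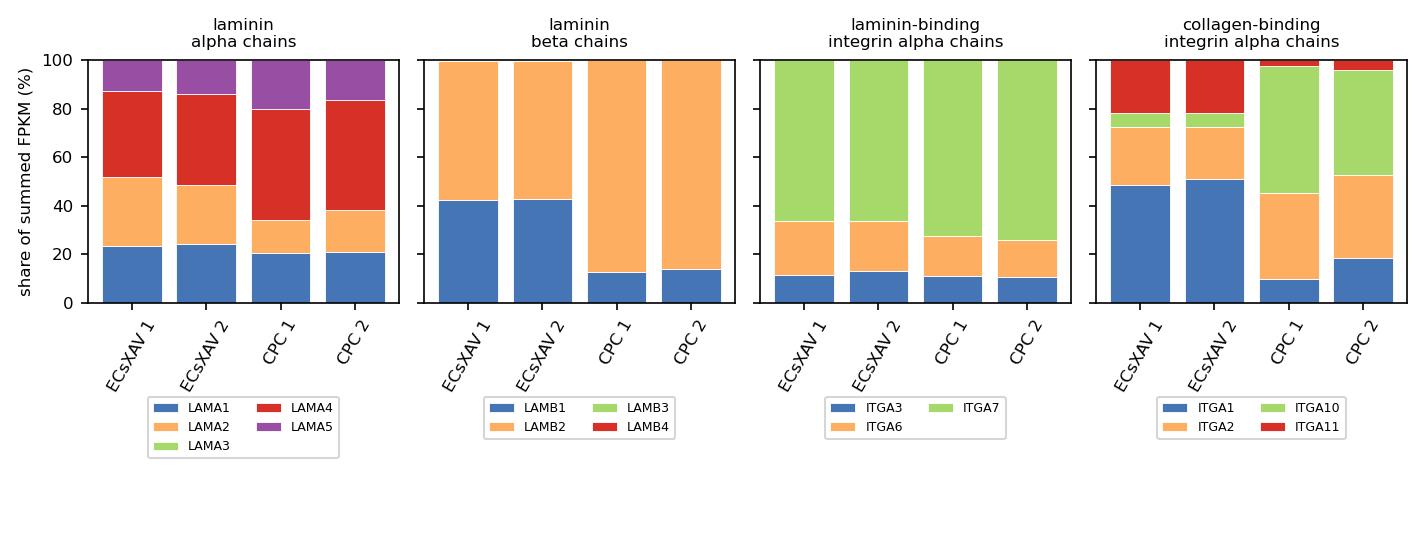
Share (%) of each chain in the summed FPKM of its class, in stacked bars of 1 library each, for laminin α, laminin β, laminin-binding integrin α and collagen-binding integrin α chains. LAMB1 takes 42.2% and 42.9% of the β chains in ECsXAV and 12.6% and 14% in CPC, ITGA7 takes most of its class in every library, and the collagen-binding class, which sums to no more than 4.15 FPKM, changes its leading chain from ITGA1 to ITGA10.

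The collagen IV genes come in head-to-head pairs, COL4A1 with COL4A2 on chromosome 13 and COL4A6 with COL4A5 on chromosome X. COL4A1 (chr13:110801310-110959504, minus strand, hg19) was at 105 and 96.4 FPKM in ECsXAV and at 41.8 and 44 FPKM in CPC. COL4A2 (chr13:110958159-111165556, plus strand) was at 175 and 177 FPKM in ECsXAV and at 81.7 and 96.3 FPKM in CPC. Neither gene overlapped between the groups. The log2 fold change was -1.21 for COL4A1 (SE 0.10, adjusted p = 0.0125, limma) and -0.98 for COL4A2 (SE 0.12, adjusted p = 0.0354, limma), so COL4A2 missed the 2-fold limit narrowly. Without CPC replicate 2 its log2 fold change was -1.10 and it passed the criterion (adjusted p = 0.0236, limma). The ratio of COL4A2 to COL4A1 was 1.67 and 1.84 in ECsXAV and 1.95 and 2.19 in CPC.

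The stretch between the starts of this pair is shown because both genes were lower in CPC and are read from it in opposite directions. It spans 126 bases on GRCh38.p14, and capitals mark a GC box (GGGCGG) and a CCAAT, on the plus strand as printed.
COL4A1 to COL4A2, chr13:110307158-110307283, plus strand: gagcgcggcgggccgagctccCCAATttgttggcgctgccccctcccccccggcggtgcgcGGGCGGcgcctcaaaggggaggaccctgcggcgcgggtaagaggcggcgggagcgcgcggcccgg
The starts of COL4A6 and COL4A5 lie 379 bases apart, with no GC box in either window of 250 bases. The window of COL4A6 holds 3 CCAAT and that of COL4A5 holds 2. These windows overlap, so the same CCAAT may be counted in both.

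In the X-linked pair neither gene passed an adjusted p under 0.05 in the main fit. COL4A6, the α6 chain, was at 37.2 and 34.9 FPKM in ECsXAV and at 59.1 and 44.8 FPKM in CPC, higher in both CPC libraries. The log2 difference of 0.50 (SE 0.16, 95% confidence interval 0.06 to 0.95) did not pass (adjusted p = 0.2, limma). COL4A5, the α5 chain whose loss causes Alport syndrome, was at 67.7 and 57.9 FPKM in ECsXAV and at 55.3 FPKM in CPC replicate 2. In CPC replicate 1 it is listed at 0, which was treated as missing. Its log2 difference of -0.18 (95% confidence interval -0.68 to 0.33, adjusted p = 0.632, limma) rests on 3 libraries. With that 0 kept as a value the difference was -3.08 (adjusted p = 0.473, limma). COL4A3 and COL4A4, the partners of COL4A5 in kidney and lung, were at no more than 0.0445 FPKM, which corresponds to 1 to 5 reads per library (ratios of FPKM between libraries within 2% of whole reads).

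Among the collagen IV chains, COL4A2 led in every library with a full set of values. COL4A1 made up 26.8% ± 0.65 of the class in ECsXAV and 18.3% in CPC replicate 2, and COL4A6 made up 9.6% ± 0.0998 and 18.6%. No share could be given for CPC replicate 1, and with its COL4A5 kept at 0 the mean CPC shares were 20.6% for COL4A1 and 25.5% for COL4A6.

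COL18A1, the endostatin collagen, had the highest mean level of all 49 genes (chr21:46825080-46933634, plus strand). It was at 176 and 193 FPKM in ECsXAV and at 99.3 and 108 FPKM in CPC, and fell by 0.83 on the log2 scale (SE 0.11, adjusted p = 0.041, limma), under 2-fold. Perlecan (HSPG2), the large heparan sulfate proteoglycan of basement membranes, was at 40 and 42.1 FPKM in ECsXAV and 26.9 and 23.7 FPKM in CPC, without overlap. Its log2 difference of -0.68 (SE 0.11) did not pass (adjusted p = 0.0554, limma).

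Agrin (AGRN), a proteoglycan best known from the neuromuscular junction, was at 26.7 and 31 against 23.3 and 22.2 FPKM, and its log2 difference of -0.33 did not pass (adjusted p = 0.223, limma). The nidogens, which link laminin to collagen IV, stayed within small differences. NID2 was at 76 and 81.2 FPKM in ECsXAV and 86.9 and 89.8 FPKM in CPC (log2 difference 0.17, 95% confidence interval -0.10 to 0.43). NID1 was at 35.7 and 34.8 FPKM in ECsXAV and 30.6 and 31.1 FPKM in CPC (log2 difference -0.19, 95% confidence interval -0.42 to 0.05). NID2 was thus above NID1 in all 4 libraries, by 2.23 ± 0.141 times in ECsXAV and 2.86 ± 0.0354 times in CPC. COL15A1, the other endostatin collagen, was under 1 FPKM throughout.

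**Figure D3:**
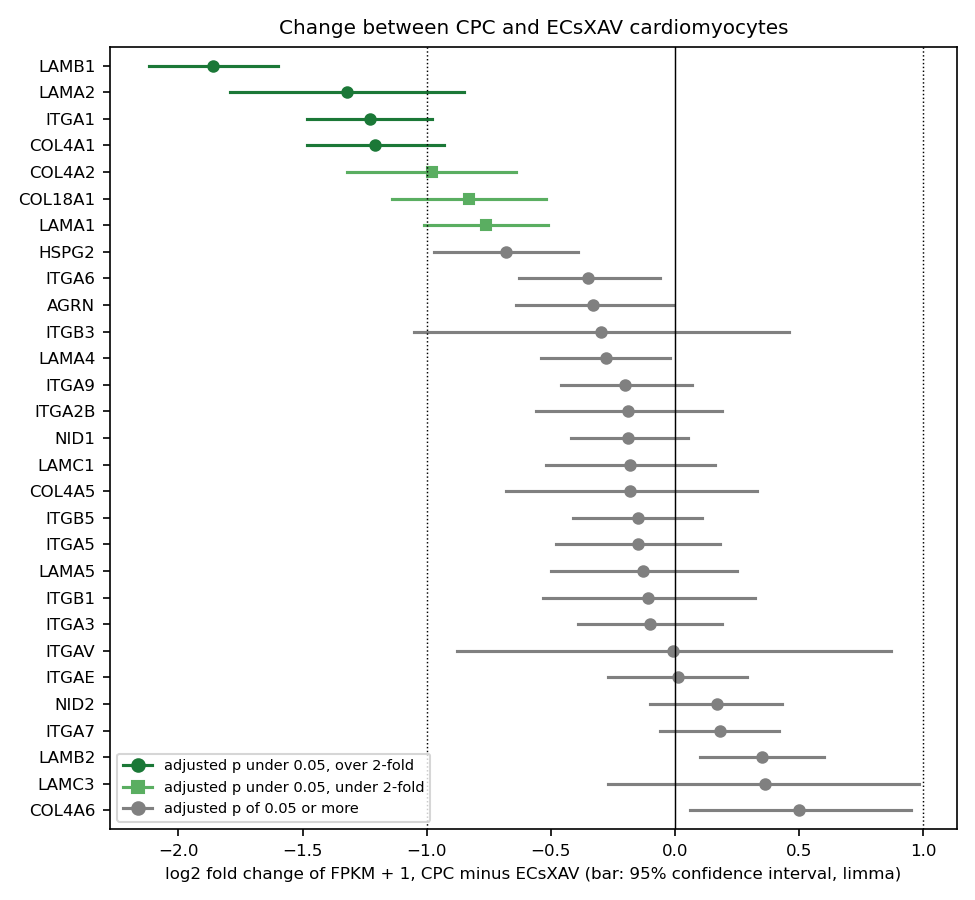
Log2 fold change of FPKM + 1, CPC minus ECsXAV, of the 29 tested genes, with limma's 95% confidence interval as a bar and dotted lines at 2-fold. LAMB1 lies farthest to the left at -1.86, the 3 genes marked by squares passed the adjusted p but not the fold, and LAMB2 and COL4A6 are the only genes whose interval lies wholly above 0.

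The collagen-binding integrin α chains were all low but were the class with the largest ratios. ITGA1, the α1 chain that binds collagen IV (chr5:52083750-52255039, plus strand), was at 1.92 and 2.12 FPKM in ECsXAV and at 0.249 and 0.321 FPKM in CPC. Its log2 fold change was -1.23 (SE 0.09, adjusted p = 0.009, limma). The pseudocount compresses a gene at this level: the mean FPKM differed by 7.09 times, and with a pseudocount of 0.1 the log2 fold change was -2.47 (adjusted p = 0.00233, limma). Without either ECsXAV replicate its mean fell under 1 FPKM and it was not tested.

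ITGA11, the α11 chain of fibroblasts that binds fibrillar collagen (chr15:68588870-68724502, minus strand), had a mean under 1 FPKM and was outside the test. It was at 0.865 and 0.9 FPKM in ECsXAV and at 0.0649 and 0.0707 FPKM in CPC, a ratio of mean FPKM of 13. In the fit with no filter on low FPKM its log2 difference was -0.82 (SE 0.04, adjusted p = 0.0177, limma), below 2-fold on that compressed scale. ITGA10, the α10 chain of cartilage and muscle, went the other way, at 0.227 and 0.254 FPKM in ECsXAV and at 1.3 and 0.741 FPKM in CPC. Its difference in the same fit, 0.69 (SE 0.16), did not pass (adjusted p = 0.146, limma). ITGA2, the α2 chain, overlapped between the groups at 0.587 to 0.953 FPKM.

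As shares of the collagen-binding class, ITGA1 made up 49.8% ± 1.93 in ECsXAV and 14.3% ± 6.11 in CPC, and ITGA11 made up 21.8% ± 0.0819 and 3.36% ± 1.07. ITGA10 made up 5.93% ± 0.274 in ECsXAV and 47.6% ± 6.35 in CPC. The class as a whole summed to 4.06 FPKM ± 0.13 in ECsXAV and 2.11 FPKM ± 0.547 in CPC.

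The laminin receptors were expressed more strongly and differed less. ITGA7, the α7 chain of striated muscle (chr12:56078352-56110188, minus strand), led the class in all libraries at 34.9 and 34.2 FPKM in ECsXAV and 38.8 and 40 FPKM in CPC. Its log2 difference of 0.18 (SE 0.09, 95% confidence interval -0.06 to 0.42) did not pass (adjusted p = 0.336, limma). ITGA6, the α6 chain, was at 11.7 and 10.5 against 8.65 and 8.34 FPKM, a log2 difference of -0.35 (95% confidence interval -0.63 to -0.06) that did not pass either (adjusted p = 0.175, limma). ITGA3, the α3 chain, was at 5.8 to 6.8 FPKM in all libraries. ITGA7 made up 66.4% ± 0.128 of the class in ECsXAV and 73.2% ± 0.945 in CPC.

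Of the α chains that bind the RGD motif of fibronectin and vitronectin, ITGAV had the highest level (chr2:187454737-187545628, plus strand). Its FPKM were 43.5 and 37.5 in ECsXAV and 54.8 and 29.5 in CPC, so the CPC replicates lay on both sides of ECsXAV and the log2 difference of -0.01 has a wide interval, -0.88 to 0.87 (adjusted p = 0.994, limma). ITGA5, the fibronectin receptor chain, was at 12.7 to 15.6 FPKM, and ITGA2B, the platelet chain, at 0.723 to 1.3 FPKM. ITGA9, a receptor chain for tenascin and VCAM1, was at 1.98 and 2.25 against 1.7 and 1.73 FPKM (log2 difference -0.20, SE 0.10, adjusted p = 0.347, limma). ITGA4 and ITGA8 were under 0.3 FPKM and higher in both ECsXAV libraries.

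The leukocyte α chains were at or near 0, apart from ITGAE, which was level at 2.08 to 2.45 FPKM (log2 difference 0.01, SE 0.10, adjusted p = 0.968, limma). ITGAX was at no more than 0.0936 FPKM. ITGAL was listed at 0 in both ECsXAV libraries and stood at 0.0109 and 0.0119 FPKM in CPC, which is 1 read in each.

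ITGB1, the β1 chain that pairs with most of the α chains above (chr10:33176201-33294720, minus strand), had the highest integrin level. It was at 92.9 and 82.6 FPKM in ECsXAV and 91.2 and 72.6 FPKM in CPC, with the groups overlapping and a log2 difference of -0.11 (SE 0.16, adjusted p = 0.764, limma). It made up 75.8% ± 1.29 of the integrin β chains in ECsXAV and 77% ± 1.48 in CPC. ITGB5 was at 18.8 and 19.2 against 16.3 and 17.8 FPKM, and ITGB3 at 9.08 and 8.24 against 9.17 and 5.06 FPKM, and neither passed. ITGB2, ITGB4, ITGB6, ITGB7 and ITGB8 were each at no more than 0.142 FPKM.

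**Figure D4:**
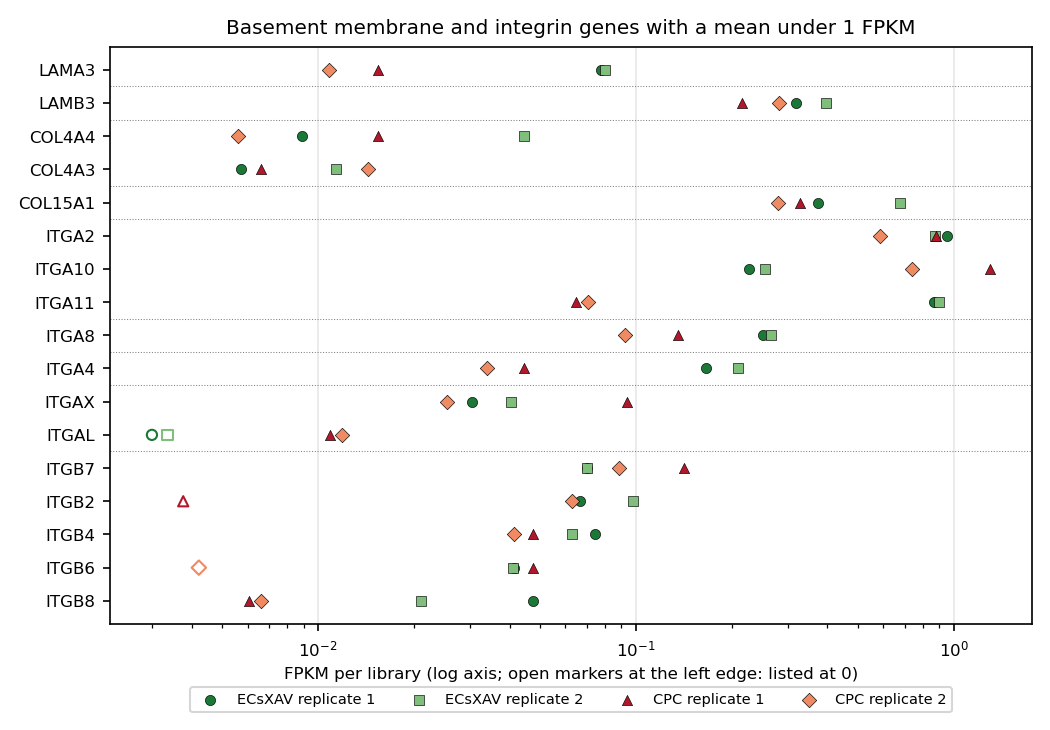
FPKM (log axis) of 17 genes with a mean under 1 FPKM that were above 0 in at least 1 library, drawn with the same markers as for the expressed genes. ITGA11 shows the widest gap with 0.865 and 0.9 against 0.0649 and 0.0707 FPKM, ITGA10 lies higher in CPC, and open markers at the left edge are values listed at 0.

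Over these 18 low genes, 10 had both ECsXAV libraries above both CPC libraries, beside 23.1% of the genes with a mean under 1 FPKM. In 3, ITGA10, ITGAL and ITGB7, both CPC libraries were higher, beside 17.1%, and in 5 the groups overlapped. Several of these differences rest on a few reads.

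Transcript levels are Cufflinks estimates that divide shared reads, and 31 of the 49 genes had a single transcript in the table. The muscle form of the β1 chain, β1D, is made when an extra exon is included that changes the end of the cytoplasmic tail. Its RefSeq transcript, NM_033668, made up 63% and 65.3% of ITGB1 FPKM in ECsXAV and 80.2% and 75% in CPC, without overlap. In FPKM the same transcript overlapped between the groups, at 58.5 and 54 against 73.2 and 54.4. The coding part of that exon is shown because it is what sets this transcript apart (72 of the 81 bases of the exon, chr10:33196000-33196071 on GRCh37, minus strand, in coding direction).
ITGB1 alternative exon: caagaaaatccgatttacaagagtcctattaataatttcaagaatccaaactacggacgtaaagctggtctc

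ITGA3 was split between 2 transcripts. NM_005501, which encodes the α3B tail, made up 21.6% and 35.3% of the gene in ECsXAV and 0.0253% and 0.0393% in CPC, while the gene level was similar. NM_002204, the α3A form, was at 4.73 and 4.4 FPKM in ECsXAV and 6.02 and 5.8 FPKM in CPC. For ITGA7, NM_002206 was the leading transcript at 60.9% to 69.2% in all libraries. For LAMA2 and ITGA6 the split differed as much between replicates as between groups: the LAMA2 transcript NM_000426 was at 58.2% and 0.191% in ECsXAV and 44.3% and 99.7% in CPC. Estimates fell near 0 in single libraries of other genes too. NM_001847 of COL4A6 made up 36.1% and 0.52% in ECsXAV, and NM_133376 of ITGB1 made up 0.0175% and 13.1% in CPC. The difference in the share of NM_005501 was not tested.

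Genes that act beside these proteins were counted in the same fit. Over all 12398 tested genes, 1.94% were called higher in ECsXAV and 1.19% higher in CPC. At an unadjusted p under 0.05 (limma) the shares were 11.6% and 9.29%, and the median log2 fold change was -0.01. These background values apply to the marker lists below as well. Of 33 tested adaptors and adhesion components, 4 were called higher in ECsXAV and 0 higher in CPC (limma, with 11 higher in ECsXAV and 3 higher in CPC at an unadjusted p under 0.05), and the median log2 fold change was -0.13. The 4 were TLN2, a talin that links integrins to actin, the tensins TNS1 and TNS3, and caveolin CAV1. TLN2 was at 11.5 and 9.97 FPKM in ECsXAV and 3.43 and 3.75 FPKM in CPC (log2 fold change -1.35, adjusted p = 0.0135, limma). CAV1 was at 9.06 and 8.77 FPKM in ECsXAV and 1.05 and 1.7 FPKM in CPC (log2 fold change -2.08, adjusted p = 0.011, limma). The highest of this list, HSPB7, is a small heat shock protein and not an integrin adaptor. It did not pass, at 968 and 1053 against 449 and 662 FPKM (log2 difference -0.89, adjusted p = 0.143, limma).

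Of 17 tested components of the basement membrane outside the 49 genes, 4 were called higher in ECsXAV and 1 higher in CPC, with a median of -0.22. At an unadjusted p under 0.05 (limma), 7 were higher in ECsXAV and 5 higher in CPC. SPARC, which binds collagen IV, was the highest of them, at 106 and 121 FPKM in ECsXAV and 36.8 and 38.8 FPKM in CPC (log2 fold change -1.56, adjusted p = 0.00805, limma). NPNT, the integrin ligand nephronectin, was at 27.5 and 23.8 against 12.4 and 10.1 FPKM (log2 fold change -1.13, adjusted p = 0.0363, limma). FREM2 (log2 fold change -1.79) and TGFBI (-3.55) were the other genes called higher in ECsXAV. SMOC1, a SPARC relative, was the gene called higher in CPC, at 0.181 and 0.129 against 2.65 and 1.59 FPKM (log2 fold change 1.41, adjusted p = 0.0399, limma).

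Of 15 tested other matrix receptors none was called by limma (6 at an unadjusted p under 0.05, 4 of them higher in ECsXAV), and their median was -0.21. The highest of them, the laminin α5 receptor BCAM, was at 107 and 125 against 114 and 135 FPKM. With a pseudocount of 0.1, without ECsXAV replicate 1 or without CPC replicate 2, 1 was called. Of 19 tested genes for folding, modification and secretion of collagen IV and laminin none was called either (limma, 6 at an unadjusted p under 0.05, 3 in each direction), with a median of 0.06, and the highest of them, the proline isomerase PPIB, was at 163 to 185 FPKM. Of 21 tested integrin ligands outside the basement membrane 3 were called higher in ECsXAV (COL1A1, COL6A3 and CTGF) and 0 in CPC (limma, with 10 higher in ECsXAV and 3 higher in CPC at an unadjusted p under 0.05), with a median of -0.40, and the count called ran from 1 to 6 over the alternative settings. The highest of these ligands, the fibrillin FBN2, was at 210 to 288 FPKM. Of 12 tested genes for proteases and their TIMP inhibitors only MMP2, the gelatinase that cleaves collagen IV, was called. MMP2 was at 16.5 and 18.4 FPKM in ECsXAV and 6.83 and 7.81 FPKM in CPC (log2 fold change -1.15, adjusted p = 0.0221, limma). At an unadjusted p under 0.05 (limma), 3 of this list were higher in ECsXAV and 2 higher in CPC. The highest protease, cathepsin CTSB, was at 48.8 and 55.5 against 52.3 and 62.9 FPKM.

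Some markers of other cell types differed between the groups, while most of those tested did not pass. In unsorted cultures fewer cells of a type and less RNA per cell cannot be told apart. The 9 fibroblast and mesenchymal markers summed to 129 and 166 FPKM in ECsXAV and 72.5 and 63.4 FPKM in CPC. Of 6 tested, 2 were called, COL1A1 and LUM, both higher in ECsXAV. The others did not pass: COL3A1 and FBLN1 had log2 differences of -1.73 and -0.65, and PDGFRA and POSTN of 0.19 and 0.15. The 8 smooth muscle and pericyte markers summed to 329 and 292 against 167 and 187 FPKM, with 1 of 6 called, TAGLN, higher in ECsXAV. TAGLN alone was at 116 and 108 against 15.8 and 22.6 FPKM. ACTA2 had a log2 difference of 0.16, and the other tested genes of this list lay between -0.84 (CNN1) and -0.02 (NOTCH3). The 9 hepatic and endoderm markers summed to 42.7 and 35.1 against 16.6 and 18.8 FPKM, with 3 of 4 called (AFP, APOA2 and TTR), all higher in ECsXAV. The highest of them, APOA1, was at 20.6 and 17.9 against 15.9 and 17.8 FPKM and did not pass (log2 difference -0.18, adjusted p = 0.489, limma).

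The 12 endothelial markers summed to 28.4 and 29.9 FPKM in ECsXAV and 25.8 and 24.2 FPKM in CPC, with 0 of 3 tested called by limma and 1, higher in ECsXAV, at an unadjusted p under 0.05. EGFL7 and KDR made up most of each sum. EGFL7, CDH5, TEK, VWF, ESAM, SOX17 and CD34 were each higher in both ECsXAV libraries, and the rest overlapped. Such separation held for 26.1% of all tested genes and 23.1% of genes with a mean under 1 FPKM. TEK was at 0.446 and 0.831 against 0.263 and 0.124 FPKM, and ESAM at 0.948 and 1.46 against 0.624 and 0.509 FPKM. The 9 leukocyte and erythroid markers summed to 3.51 and 5.15 against 0.591 and 0.444 FPKM, with PTPRC at 0 in all. Most of the ECsXAV sum was the globin HBE1, at 2.13 and 4.55 against 0.338 and 0.184 FPKM. HBE1 was the 1 gene of this list that was tested, and it did not pass (log2 difference -1.73, adjusted p = 0.068, limma). The epithelial keratins KRT8 and KRT18 are each listed at 0 in 1 library of each group, so the epithelial list was not compared by its sum, and none of its 4 tested genes was called by limma (4 at an unadjusted p under 0.05, all higher in ECsXAV). The part of these markers in the differences of LAMB1, LAMA2, COL4A1 and ITGA1 was not tested.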

How the data were processed

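Poly-A RNA of 4 day 14 cultures was sequenced by the authors, who deposited FPKM per gene and per transcript. The study computed them with Cufflinks 2.1.1 on UCSC annotations of hg19, and the submitters' processing notes list TopHat 1.3.3 beside Cufflinks. For separate read counts the study names Gsnap, strand-specific counting and the removal of reads with several alignments. The aligner used for the FPKM, the scaling between libraries, the treatment of reads with several alignments and the use of strand are not given in the sources used here, so overlapping antisense genes and near-identical copies may share reads. Read counts were not used here, and the total depth is unknown. Relative depth was taken from the steps of low FPKM.

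For symbols with several loci the locus with the highest mean FPKM was used. A 0 beside at least 5 FPKM in the other library of the group was set to missing (219 genes). The log2 of FPKM plus a pseudocount of 1 was fitted with limma 3.58.1 (R 4.3.3) as CPC minus ECsXAV, with an intensity trend. P-values were adjusted by Benjamini-Hochberg across 12398 genes whose mean reached 1 FPKM, and genes were called at an adjusted p under 0.05 and over 2-fold. A fold change on this scale understates the change of low genes. The steps were tested on simulated data. Gene positions and the ITGB1 exon are from GENCODE 44 lifted to GRCh37, and promoters are from RefSeq on GRCh38.p14. Groups and replicate numbers came from the labels.

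Values of 1 member are not reported here, though it stays in the counts. Members and lists were chosen with earlier results of these data known. Full statistics are given for genes past the criterion and the highest gene of each role, values for the other tested genes, and ranges for the rest. From the lists of genes that act beside the members, the called genes and the highest of each list are named. From the marker lists, the called genes and some others are named, and not always the highest. The remaining named genes (ITGA11, ITGA10, NM_005501 of ITGA3, the low genes and some markers that were not called) were named after their values were seen. Alternatives were other pseudocounts, filters and scalings, no trend, a replicate block, zeros kept, summed loci, the isoform table, no short RNA genes, and each library left out. Tables were made with pandas 2.3.3 under Python 3.11.15 and plots with matplotlib 3.10.9.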

Additional observations from a re-analysis of the deposited data

How the results depend on the processing

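Over 15 alternative settings the 29 tested genes gave 426 fold changes, of which 417 kept their direction and their side of the criterion. LAMA2 lost its call with no filter on low FPKM, and COL4A2 gained one without CPC replicate 2. Direction reversed 7 times, in 4 genes. ITGAV, ITGAE and ITGB1 were near level, while ITGB3 had a main difference of -0.30 with a wide interval (-1.05 to 0.46). ITGAV was at 0.02 with quantile normalization, 0.01 with median-of-ratios scaling, and -0.44 to 0.43 with each replicate left out. With each replicate left out, ITGAE ran from -0.07 to 0.09, ITGB1 from -0.27 to 0.06 and ITGB3 from -0.67 to 0.08. The extremes came from leaving out CPC replicate 1 or CPC replicate 2, and ITGAV also reversed without ECsXAV replicate 1 (0.10). The number of members called higher in ECsXAV was 3 to 5 with each replicate left out, and the number called higher in CPC was 0 in every setting run. Without an ECsXAV replicate the count was 3 because ITGA1 was not tested, as with a mean of at least 5 FPKM. With 1 library left in a group its spread was assumed to be that of the other group. Over all genes 388 passed, 246 with a mean of at least 5 FPKM, where 8283 genes were tested, and 400 to 472 with each replicate left out. A block on the replicate number gave 520 genes and 4 members. Same-numbered libraries deviated together (Pearson r = 0.25, Spearman rho = 0.373 across 12200 genes), but the labels give only a shared number, and the replicate block changed no member's call at over 2-fold. At any fold, 9 members passed the adjusted p under the block in place of 7, with HSPG2 (0.00517, limma) and, higher in CPC, COL4A6 (0.0219, limma) added. With no filter on low FPKM, 5 of 47 members passed it, among them ITGA11, which the main fit did not test. There LAMA2 (0.0672, limma), COL4A2 (0.0611, limma) and COL18A1 (0.0661, limma) did not pass. The count of other basement membrane components was 2 with no filter and 3 with a mean of at least 5 FPKM. That of proteases and TIMP inhibitors was 2 with a pseudocount of 0.1. With COL4A5 kept at 0 in CPC replicate 1, the mean CPC shares of collagen IV were 42.4% for COL4A2 and 11.5% for COL4A5. Depth limits what can be read from genes under about 0.1 FPKM, where values stand for a few reads.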
